A study of Homo sapiens with 12 samples.

Results

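The 48 genes described here encode the machinery of mitosis and chromosome segregation: the kinases that start mitosis, the spindle checkpoint, the kinetochore, condensin, and the motors and scaffolds of the spindle and of cytokinesis. They were chosen by name, not by their values. All 48 were found by symbol among the 60649 gene IDs of the deposited table of normalised counts, and all 48 passed the filter on low counts that left 17576 genes for testing.

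RNA sequencing libraries were made in 4 groups of 3 from MDA-MB-231, a widely used human cell line derived from a triple-negative breast cancer. SIRT1 KD cells carried a short hairpin RNA (shRNA) against SIRT1, a NAD-dependent protein deacetylase, and IGF2BP2 KD cells one against IGF2BP2, an RNA-binding protein. Double KD cells carried both hairpins, and control cells a sham-targeting shRNA. For every group, lentivirus was packaged in HEK-293T (cells of human embryonic kidney origin) and given with Polybrene at 8 ug/mL. Infected cells of all groups were kept under puromycin at 2.0 ug/mL. The series states 3 independent analyses of each condition. Hairpin sequences were not given in the sources used here, nor whether the analyses were separate infections. The p-values therefore refer to the spread among libraries within groups, estimated over all 12 libraries together.

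Mitotic entry is driven by cyclin B and CDK1, with the Polo-like and Aurora kinases acting on centrosomes, chromosomes and spindle. Condensin and topoisomerase II compact the chromosomes, and microtubules bind them at kinetochores, through the NDC80 complex. Unattached kinetochores hold the checkpoint proteins MAD2 and BUBR1 on CDC20, and once they are released the anaphase-promoting complex destroys securin and cyclin B, so that separase can part the sister chromatids. Most of these genes are transcribed late in the cell cycle, through the B-MYB and FOXM1 complexes, which bind a short promoter element called the cell cycle genes homology region (CHR). Proliferating tumour cells express them highly.

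The CHR is shown first because it is a sequence that many of these genes share and that their choice did not use. RefSeq promoters (GRCh38.p14, 250 bases before to 50 after the gene start) were found for 41 of the 48 genes; the others were AURKA, TPX2, BIRC5, BUB3, TTK, UBE2C and FOXM1. TTTGAA or TTCGAA, searched on both strands, was present in 29 of 41 (70.7%), against 11.6% of the 11734 promoters of tested genes and 16.6% of all 27305 promoters. Of 39 matches, 27 lay within 50 bases of the start. CCAAT, also on both strands, was present in 30 (73.2%), against 36.2% of promoters of tested genes, and both motifs in 22 (53.7%), against 4.82%. The windows below, 30 bases each, hold the match in capitals. The first 4 belong to genes that fell in SIRT1 KD cells and the last 4 to genes whose level there was not called different.
MAD2L1, chr4:120066807-120066836, minus strand: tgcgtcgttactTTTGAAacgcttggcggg
CENPA, chr2:26786026-26786055, plus strand: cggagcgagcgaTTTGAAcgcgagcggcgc
NCAPG, chr4:17810932-17810961, plus strand: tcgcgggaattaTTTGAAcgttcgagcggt
DLGAP5, chr14:55191565-55191594, minus strand: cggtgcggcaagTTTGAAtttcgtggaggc
PLK1, chr16:23678848-23678877, plus strand: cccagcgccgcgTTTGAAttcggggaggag
CCNB2, chr15:59105105-59105134, plus strand: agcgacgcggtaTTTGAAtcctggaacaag
ESPL1, chr12:53268256-53268285, plus strand: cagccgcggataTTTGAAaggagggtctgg
CDCA8, chr1:37692481-37692510, plus strand: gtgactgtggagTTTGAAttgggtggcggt
A match is a description of these letters, not a shown binding site. Of the genes with a match, 14 of 29 were lower in SIRT1 KD than in control cells, with a median log2 change of -0.23, and 6 of the 12 without, with a median of -0.27.

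Assigned reads numbered 19522606 to 22509142 in 11 libraries and 15243152 in double KD replicate 2, which stood apart. Mitochondrial genes took 1.18% of its reads, against 1.99% to 2.57% in the others, and its log2 values differed from those of its partners with an SD of 0.478 over all genes, against 0.273 to 0.379 elsewhere. Counts of called genes among the 48 are given with and without it. SIRT1 averaged 527 ± 27.5 normalised counts in SIRT1 KD, 728 ± 35.8 in IGF2BP2 KD, 404 ± 28.7 in double KD and 834 ± 32.7 in control cells (SD, n = 3 each). IGF2BP2 averaged 3757 ± 35.4 in SIRT1 KD, 762 ± 69.6 in IGF2BP2 KD, 864 ± 139.8 in double KD and 3075 ± 44.5 in control cells. The summed counts of 6 genes typical of this line (VIM, CD44, AXL, MSN, CAV1, LGALS1) were 150099.9 to 163081.6 in SIRT1 KD, 124251.9 to 131519.2 in IGF2BP2 KD, 133220.2 to 150461.2 in double KD and 130809.8 to 136702.1 in control libraries. Of 7 luminal breast genes, ESR1, PGR and FOXA1 averaged under 10 counts in every group. With KRT8, ERBB2, EPCAM and GATA3 the list summed to 15696.6 to 16984.8 in SIRT1 KD, 13329.2 to 13952.9 in IGF2BP2 KD, 12266.8 to 16657.4 in double KD and 14800.5 to 15129.1 in control libraries. GATA3 and EPCAM fell against control in SIRT1 KD (log2 changes -0.37 and -0.39, adjusted p = 0.0122 and 0.0333) and in double KD (-0.59 and -0.42, adjusted p = 0.00025 and 0.0176). KRT8 and ERBB2 were above 0 in SIRT1 KD, by at most 0.17, and not called. Without double KD replicate 2, KRT8 was called higher in SIRT1 KD, and both were called lower in double KD. Of the 6 genes typical of the line, MSN, VIM, LGALS1 and AXL were called higher than control in SIRT1 KD, and MSN and AXL in double KD. Of 5 packaging-line genes 4 averaged under 10 counts; the other was SIX2, which fell in SIRT1 KD (-0.62, adjusted p = 0.00857) and double KD (-0.54, adjusted p = 0.0161). That list summed to 59.0 to 65.0 in SIRT1 KD, 64.2 to 84.4 in IGF2BP2 KD, 51.6 to 82.3 in double KD and 95.5 to 98.6 in control libraries. The part of these markers in the results was not tested. The immune list summed to 5.3 to 28.7 over all libraries and the fibroblast list to 476.9 to 1141.9.

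A large share of the mitosis genes had a lower level after SIRT1 knockdown. In SIRT1 KD against control cells, 23 of 48 genes fell and 1 rose, against 15.7% of all tested genes lower and 12.9% higher (limma, Benjamini-Hochberg adjusted p under 0.05). The median log2 change was -0.23 over the 48 genes and -0.00 over all tested genes, and 41 of the 48 were below 0. Only MAD2L1 and FOXM1 fell by at least 1 on the log2 scale, and 17 of the 23 fell by less than 0.5. All 3 SIRT1 KD libraries lay below all 3 control libraries for 30 genes and above them for 1, against 26% and 25% of all tested genes. Without control replicate 2 the count that fell was 15. It was 29 without double KD replicate 2, which enters here only through the filter and the shared estimate of the spread; CDC25C, CDCA8, BUB1B, UBE2S, MKI67 and ECT2 were then added, against 20.4% of all tested genes lower. In bulk RNA, fewer cells in mitosis and less RNA per mitotic cell cannot be told apart.

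**Figure D1:**
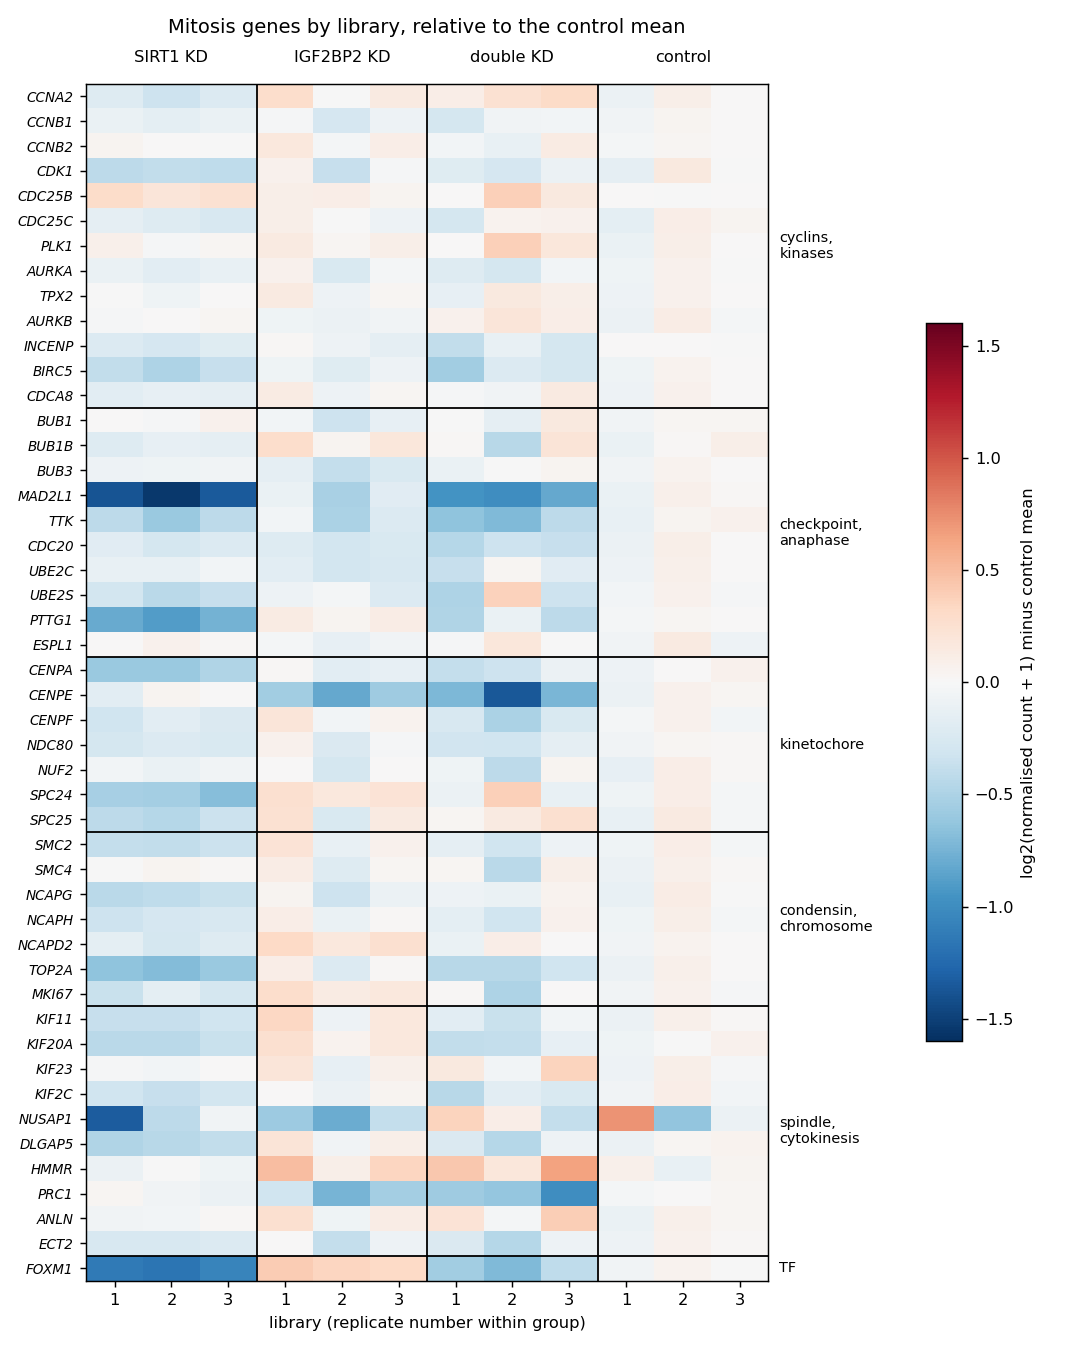
Heat map of the 48 mitosis genes (rows, by role) in the 12 libraries (columns), as log2(normalised count + 1) minus the mean of the control libraries; blue is lower and red higher. MAD2L1 and FOXM1 form the darkest rows in the SIRT1 KD libraries, and CENPE and PRC1 are low in the IGF2BP2 KD and double KD libraries.

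FOXM1, the transcription factor of the G2 and M phases (chr12:2857681-2877155, minus strand, GRCh38), had 709, 693 and 749 normalised counts in SIRT1 KD, 2057, 1973 and 1934 in IGF2BP2 KD, 1054, 954 and 1173 in double KD, and 1502, 1623 and 1544 in control libraries. No 2 groups overlapped: SIRT1 KD was lowest, then double KD, control and IGF2BP2 KD. Against control its log2 change was -1.12 in SIRT1 KD (SE 0.08, limma adjusted p = 4.9e-09), 0.35 in IGF2BP2 KD (adjusted p = 0.00314) and -0.56 in double KD (adjusted p = 1.4e-05). All 3 calls held in every alternative tried. Part of its exons, 15.9%, overlaps ITFG2 on the other strand, and whether reads were counted by strand was not given in the sources used here.

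Among the 13 cyclins, kinases, phosphatases and chromosomal passenger genes, 4 fell and 1 rose in SIRT1 KD against control cells, with a median of -0.13. BIRC5, which encodes survivin of the chromosomal passenger complex, had 2226, 2089 and 2274 normalised counts in SIRT1 KD, 2802, 2572 and 2775 in IGF2BP2 KD, 1985, 2514 and 2403 in double KD, and 2791, 3059 and 2949 in control libraries. CDK1, the master kinase of mitosis, had 1401, 1433 and 1419 in SIRT1 KD, 1964, 1453 and 1846 in IGF2BP2 KD, 1637, 1562 and 1767 in double KD, and 1698, 2095 and 1863 in control libraries. For both, SIRT1 KD lay below control in every library: the log2 change was -0.42 for BIRC5 (adjusted p = 0.00062) and -0.41 for CDK1 (adjusted p = 0.00411). CDC25B, a phosphatase that activates CDK1, went the other way, with 4621, 4311 and 4447 in SIRT1 KD, 4018, 4026 and 3863 in IGF2BP2 KD, 3781, 4880.4 and 4196 in double KD, and 3779, 3727 and 3765 in control libraries. Its rise of 0.25 in SIRT1 KD (adjusted p = 0.0189) was lost without any single control library, SIRT1 KD replicate 1 or SIRT1 KD replicate 3 (adjusted p 0.0539 to 0.0844). CCNA2, the cyclin of S phase and early mitosis, fell by 0.25 in SIRT1 KD (adjusted p = 0.0214), a call lost without control replicate 2 (0.114), control replicate 3 (0.0646) or SIRT1 KD replicate 2 (0.102). INCENP, the scaffold of the passenger complex, fell by 0.23 (adjusted p = 0.0244), a call lost without any single control library or without SIRT1 KD replicate 1 or 2 (0.062 to 0.0975).

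Unlike CDK1 and CCNA2, which were called lower, the other kinases and cyclins of this role were not called in SIRT1 KD. The log2 change against control was 0.03 for PLK1 (95% interval -0.14 to 0.21), 0.01 for AURKB (-0.14 to 0.15), 0.01 for CCNB2 (-0.14 to 0.17) and -0.03 for TPX2 (-0.19 to 0.13), which activates Aurora A. It was -0.12 for CCNB1 (-0.28 to 0.03) and -0.13 for AURKA (-0.30 to 0.03). No lower bound of these 6 intervals reached the change of BIRC5 or CDK1. This leaves out the error of those 2 changes, and the difference between genes was not tested. CDC25C and CDCA8 were at -0.20 and -0.15 and also not called, although both were without double KD replicate 2.

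The 10 genes of the spindle checkpoint and anaphase onset had a median of -0.20, with 4 lower and none higher at the limma threshold in SIRT1 KD. MAD2L1, which encodes the checkpoint protein MAD2 (chr4:120055608-120067074, minus strand), had 618, 551 and 631 normalised counts in SIRT1 KD, 1495, 1122 and 1414 in IGF2BP2 KD, 830.5, 804 and 910.0 in double KD, and 1495, 1699 and 1629.8 in control libraries. PTTG1, which encodes securin, had 1122, 1056 and 1158 in SIRT1 KD, 2138, 2020.2 and 2127 in IGF2BP2 KD, 1397, 1821 and 1465 in double KD, and 1917, 1990.1 and 1959.6 in control libraries. TTK, the checkpoint kinase MPS1, had 946, 840.5 and 948 in SIRT1 KD, 1224, 891 and 1088 in IGF2BP2 KD, 809, 773 and 948 in double KD, and 1166, 1302 and 1329.9 in control libraries. All 3 genes were lower in every SIRT1 KD and every double KD library than in any control library. In SIRT1 KD, MAD2L1 fell by 1.42 on the log2 scale (SE 0.10, adjusted p = 5.1e-09), the largest change among the 48 genes. PTTG1 changed by -0.81 (adjusted p = 6.4e-07) and TTK by -0.47 (adjusted p = 0.00222). CDC20, the activator of the anaphase-promoting complex that MAD2 holds back, fell by 0.23 (adjusted p = 0.013), a call lost without control replicate 2 (0.0911) or SIRT1 KD replicate 2 (0.0643). The partners of MAD2 in the checkpoint were not called: the log2 change was 0.02 for BUB1 (95% interval -0.15 to 0.19), -0.07 for BUB3 (-0.20 to 0.07) and -0.16 for BUB1B (-0.42 to 0.09), which encodes BUBR1. ESPL1, which encodes separase, the protease that securin inhibits, was at 0.04 (-0.13 to 0.20). The ubiquitin-conjugating enzymes of anaphase, UBE2C and UBE2S, were at -0.09 and -0.37 (adjusted p = 0.452 and 0.0991). BUB1B and UBE2S were called lower without double KD replicate 2.

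**Figure D2:**
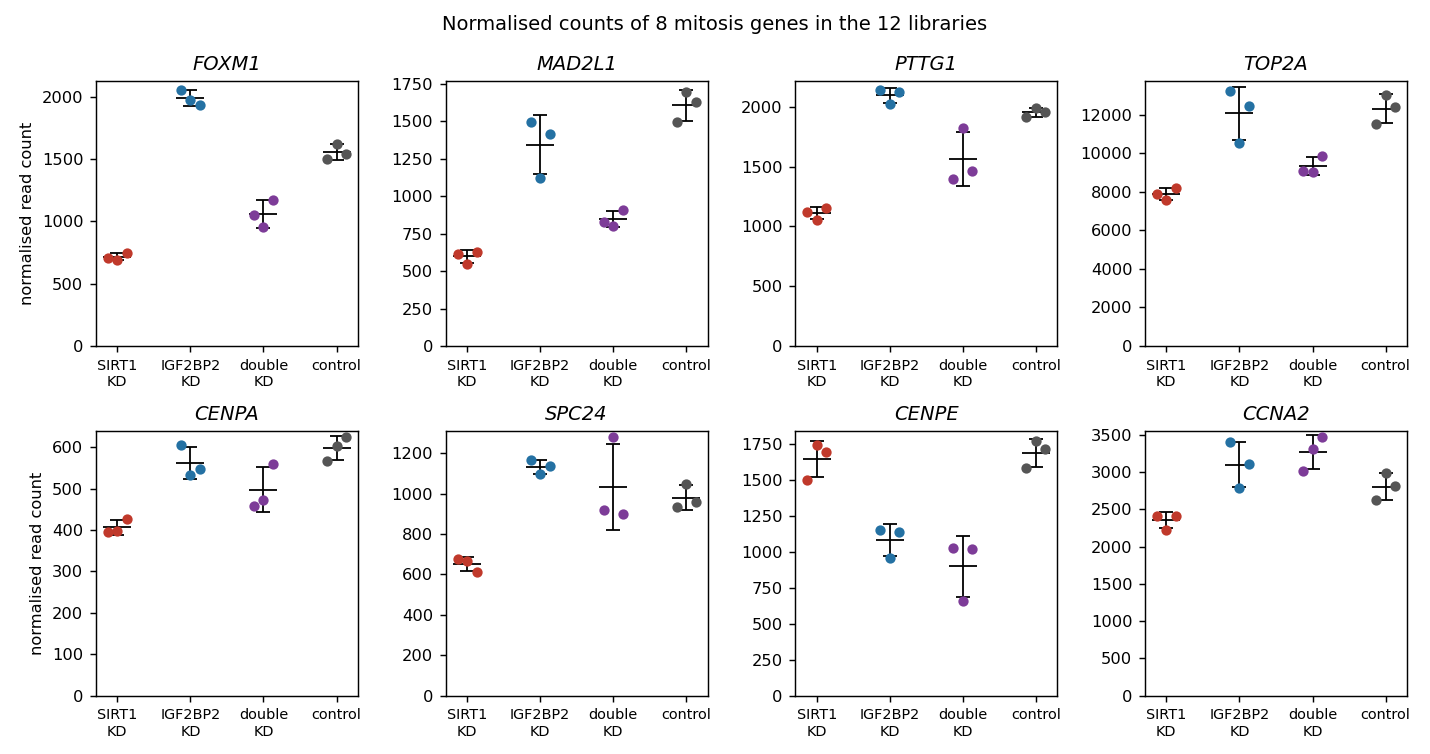
Normalised read counts of 8 mitosis genes in the SIRT1 KD, IGF2BP2 KD, double KD and control libraries; points are libraries, and bars are the mean ± SD of 3 libraries. FOXM1, MAD2L1, PTTG1, TOP2A, CENPA, SPC24 and CCNA2 are lowest in SIRT1 KD, while CENPE is low in IGF2BP2 KD and double KD and not in SIRT1 KD.

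At the kinetochore and centromere 5 of 7 genes fell in SIRT1 KD, with a median of -0.25. CENPA, the histone H3 variant that marks centromeres, had 396, 397 and 427 normalised counts in SIRT1 KD, 606, 532 and 547 in IGF2BP2 KD, 458, 474 and 559.6 in double KD, and 568, 602 and 626 in control libraries. SPC24, a subunit of the NDC80 complex, had 678, 669 and 612 in SIRT1 KD, 1167, 1097 and 1136 in IGF2BP2 KD, 920.4, 1278 and 899 in double KD, and 933, 1049.7 and 958 in control libraries. SPC25, its partner in the same complex, had 253, 247 and 267 in SIRT1 KD, 401, 286 and 376 in IGF2BP2 KD, 348, 375 and 406 in double KD, and 313, 374 and 333 in control libraries. In each of these 3 genes the SIRT1 KD libraries were the lowest of all 12. The fall in SIRT1 KD against control was 0.56 for CENPA (adjusted p = 0.00011) on the log2 scale; SPC24 changed by -0.58 (adjusted p = 0.00036) and SPC25 by -0.41 (adjusted p = 0.0124). The NDC80 complex has 4 subunits, of which NDC80 changed by -0.25 (adjusted p = 0.025) and NUF2 was at -0.07 (95% interval -0.29 to 0.15, not called). The difference between subunits was not tested. CENPF, a large coiled-coil protein of the outer kinetochore, changed by -0.24 (adjusted p = 0.029). Weaker calls here depended on single libraries. That of SPC25 was lost without control replicate 2 (0.0759) or SIRT1 KD replicate 2 (0.0514). CENPF was lost without any control library or without SIRT1 KD replicate 1 or 3 (0.0547 to 0.132), and NDC80 without control replicate 2 or 3 or any SIRT1 KD library (0.0532 to 0.0914). CENPE, the kinetochore motor that moves chromosomes to the spindle equator, was at -0.04 (-0.33 to 0.26).

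Of the 7 condensin and chromosome genes, 5 fell in SIRT1 KD, with a median of -0.28. TOP2A, which encodes topoisomerase II alpha and untangles sister chromatids, had 7900.1, 7578 and 8178 normalised counts in SIRT1 KD, 13236, 10533 and 12432 in IGF2BP2 KD, 9074, 9046 and 9857 in double KD, and 11515, 13037 and 12390.3 in control libraries. NCAPG, a subunit of condensin I, had 1569.9, 1598 and 1654 in SIRT1 KD, 2187, 1678 and 1987 in IGF2BP2 KD, 2003, 1967 and 2197 in double KD, and 1952, 2298 and 2104 in control libraries. SMC2, an ATPase of both condensins, had 1754, 1748 and 1809 in SIRT1 KD, 2669, 2107 and 2395 in IGF2BP2 KD, 2080.2, 1832 and 2176 in double KD, and 2178, 2478 and 2236 in control libraries. No SIRT1 KD library reached a control library in any of the 3 genes; for TOP2A the double KD libraries were also below all control libraries. The log2 change in SIRT1 KD was -0.64 for TOP2A (adjusted p = 5e-06), -0.40 for NCAPG (adjusted p = 0.00203) and -0.37 for SMC2 (adjusted p = 0.00261). NCAPH and NCAPD2, the other condensin I subunits listed, changed by -0.28 (adjusted p = 0.0242) and -0.22 (adjusted p = 0.0206). The NCAPH call was lost without control replicate 2 or 3 or any SIRT1 KD library (0.0535 to 0.119), and that of NCAPD2 without control replicate 2 or 3 or SIRT1 KD replicate 2 or 3 (0.0549 to 0.0975). SMC4, the partner of SMC2, was at 0.02 (95% interval -0.21 to 0.26), with 25.6% of its exonic bases shared with a gene on the other strand. MKI67, the proliferation marker Ki-67 that coats mitotic chromosomes, was at -0.26 and missed the threshold (adjusted p = 0.0745), which it passed without double KD replicate 2.

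Spindle motors and cytokinesis genes had a median of -0.29, and 4 of 10 fell in SIRT1 KD. KIF20A, a kinesin of the central spindle, had 1936, 1931 and 2044 normalised counts in SIRT1 KD, 3108, 2715 and 2927 in IGF2BP2 KD, 1996, 1999.7 and 2383 in double KD, and 2500.2, 2609 and 2731 in control libraries. DLGAP5, a spindle protein that stabilises kinetochore microtubules, had 1864, 1913 and 1976 in SIRT1 KD, 2995, 2496 and 2759 in IGF2BP2 KD, 2208, 1893 and 2453 in double KD, and 2439, 2653 and 2694 in control libraries. KIF2C, a kinesin that takes microtubules apart at the centromere, had 1585, 1529.5 and 1609 in SIRT1 KD, 1986, 1859 and 2027 in IGF2BP2 KD, 1450.0, 1754 and 1661 in double KD, and 1891, 2119.9 and 1921 in control libraries. SIRT1 KD was below control in every library for all 3; in double KD only DLGAP5 overlapped control. The log2 change in SIRT1 KD was -0.41 for KIF20A (adjusted p = 0.00049), -0.43 for DLGAP5 (adjusted p = 0.00086) and -0.33 for KIF2C (adjusted p = 0.00281). KIF11, the motor that pushes spindle poles apart, changed by -0.35 (adjusted p = 0.00864). Other genes of the central spindle and contractile ring were not called: KIF23 was at -0.02 (95% interval -0.21 to 0.18), ANLN at -0.03 (-0.23 to 0.17) and PRC1 at -0.04 (-0.33 to 0.25). ECT2, the exchange factor that activates RhoA, was at -0.24 and not called (adjusted p = 0.0656), except without double KD replicate 2. NUSAP1 was listed at only 5.96 to 27.8 counts over the 12 libraries, with 62.2% of its exonic bases shared with a gene on the same strand, and could not be judged.

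**Figure D3:**
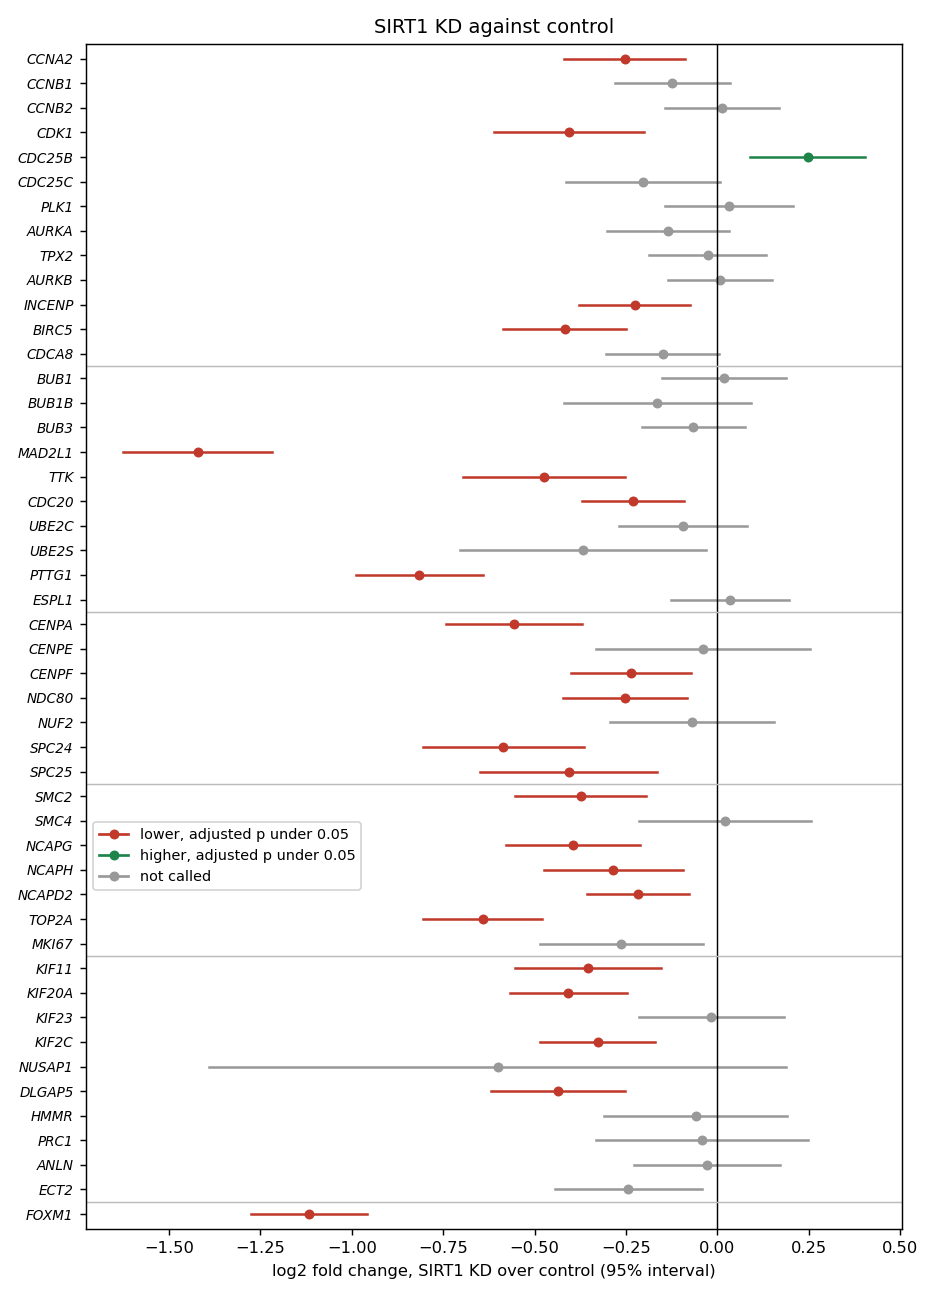
Log2 fold change of SIRT1 KD over control (horizontal axis) for the 48 genes in order of role, with 95% intervals from limma; red points are lower and the green point higher at adjusted p under 0.05, and grey points are not called. The intervals of MAD2L1 and FOXM1 lie furthest below 0, and CDC25B is the only called point above 0.

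After IGF2BP2 knockdown alone, CENPE, PRC1, BUB3 and CDC20 fell and FOXM1 and NCAPD2 rose. In IGF2BP2 KD against control cells the share called among the 48 genes, 8.33% lower and 4.17% higher, was near that of all tested genes, 9.39% lower and 6.86% higher, and the median was -0.02. With only the libraries of both groups in the fit, 7 genes fell and 6 rose, against 16.4% and 14% of all tested genes. Libraries of the groups did not overlap for 5 genes lower and 7 higher, against 21.5% and 19.8% of all tested genes. CENPE had 1500.4, 1739 and 1692 normalised counts in SIRT1 KD, 1149, 953 and 1137 in IGF2BP2 KD, 1027, 656 and 1018 in double KD, and 1579, 1767 and 1715 in control libraries. PRC1, a microtubule bundler of the central spindle, had 145, 137 and 133 in SIRT1 KD, 113, 84.4 and 96.8 in IGF2BP2 KD, 95.2, 92 and 71.1 in double KD, and 139, 143 and 145 in control libraries. Every library without IGF2BP2 knockdown was above every library with it for both genes. CENPE fell by 0.65 in IGF2BP2 KD against control (SE 0.14, adjusted p = 0.00419). PRC1 fell by 0.54 (adjusted p = 0.011), a call lost without IGF2BP2 KD replicate 2 (0.0612). PRC1 is counted at a low level here, and 57.6% of its exonic bases are shared with a gene on the same strand.

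BUB3, the checkpoint protein that carries BUB1 and BUBR1 to kinetochores, had 4292, 4314 and 4364 normalised counts in SIRT1 KD, 4091, 3478 and 3819.9 in IGF2BP2 KD, 4216, 4506 and 4641 in double KD, and 4344, 4690.1 and 4537 in control libraries. NCAPD2 had 5181, 4764 and 5034 in SIRT1 KD, 7248, 6519.9 and 6897 in IGF2BP2 KD, 5378, 6214 and 5816 in double KD, and 5577, 6009.6 and 5815 in control libraries. In IGF2BP2 KD cells BUB3 was below and NCAPD2 above all control libraries. The log2 change in IGF2BP2 KD was -0.26 for BUB3 (adjusted p = 0.0128), -0.25 for CDC20 (adjusted p = 0.0149) and 0.25 for NCAPD2 (adjusted p = 0.0159). These 3 calls were fragile: BUB3 was lost without control replicate 2 or 3 or IGF2BP2 KD replicate 2 (0.0527 to 0.073), CDC20 without control replicate 2 or 3 or IGF2BP2 KD replicate 2 or 3 (0.0531 to 0.102), and NCAPD2 without control replicate 1 or 3 or IGF2BP2 KD replicate 1 or 3 (0.0566 to 0.0877). The genes that fell numbered 2 without control replicate 2, 2 without control replicate 3, 1 without IGF2BP2 KD replicate 2 and 7 without double KD replicate 2. Those that rose numbered 1 without control replicate 1 or 3 or IGF2BP2 KD replicate 1 or 3, and 6 without double KD replicate 2. In the fit without double KD replicate 2, 2744 of all 18112 tested genes were lower and 2284 higher. The replicates of IGF2BP2 KD did not shift the same way: the median of the 48 genes against the control mean was 0.10, -0.12 and 0.02 in IGF2BP2 KD replicates 1, 2 and 3, against -0.21, -0.24 and -0.22 in the SIRT1 KD libraries and -0.08, 0.07 and 0.01 in the control libraries. Of the 48 genes 14, 38 and 22 lay below the control mean in IGF2BP2 KD replicates 1, 2 and 3. The counts were 44, 4 and 17 in control replicates 1, 2 and 3, and 42, 42 and 38 in the SIRT1 KD libraries. Genes of the list thus moved together within single libraries, also in control cells, and are not independent observations. The part of these library differences in the calls was not tested.

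**Figure D4:**
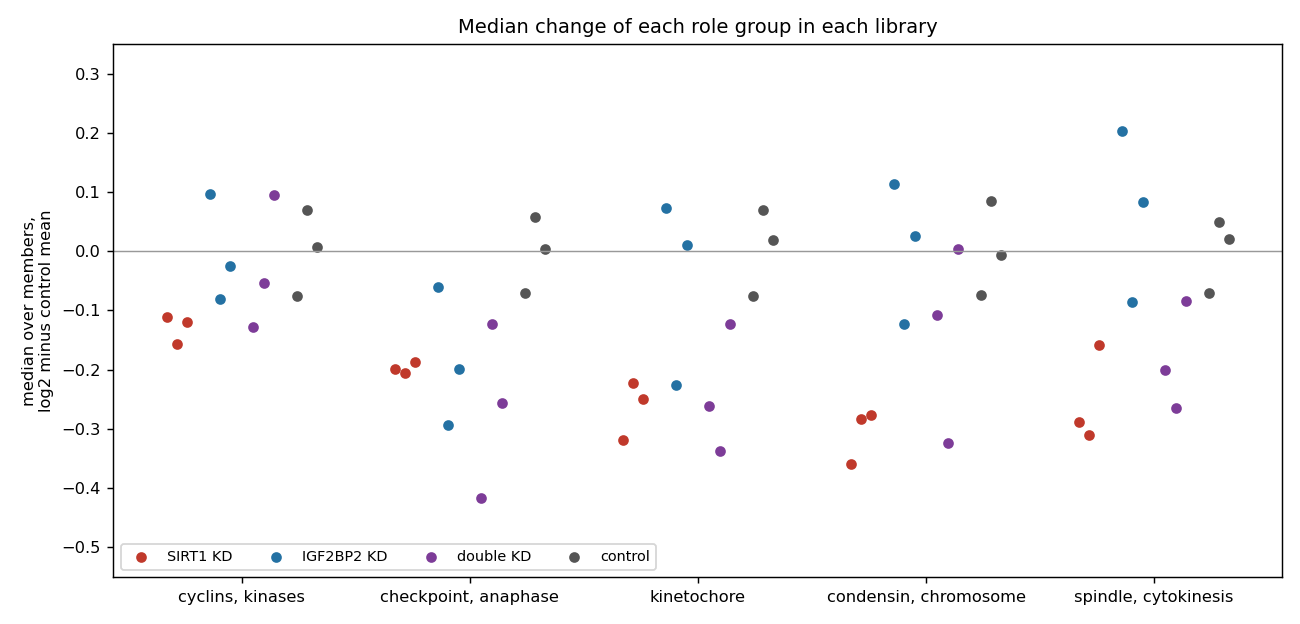
Median over the genes of each role (horizontal axis) of log2(normalised count + 1) minus the control mean, with 1 point for each library. The SIRT1 KD points are below 0 in every role. IGF2BP2 KD points lie on both sides of 0 in every role drawn except the spindle checkpoint, where all 3 lie below 0. FOXM1, the only gene of its role, is not drawn.

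In double KD against control cells 17 of 48 genes fell and 2 rose, against 17.5% of all tested genes lower and 16.7% higher, with a median of -0.15. Libraries of the groups did not overlap for 17 genes lower and 3 higher, against 21.3% and 20.9% of all tested genes. The largest falls, as log2 changes, were those of CENPE (-0.93, adjusted p = 7.6e-05), MAD2L1 (-0.92, adjusted p = 6.8e-07), PRC1 (-0.73, adjusted p = 0.00043) and TTK (-0.59, adjusted p = 0.00026). By role, 5 of 10 spindle and cytokinesis genes, 4 of 7 kinetochore genes, 4 of 10 checkpoint genes, 2 of 13 cyclin and kinase genes and 1 of 7 condensin and chromosome genes were lower. HMMR, a microtubule-binding protein of spindle poles, had 248, 264 and 254 normalised counts in SIRT1 KD, 375, 284 and 337 in IGF2BP2 KD, 359.6, 302 and 414 in double KD, and 281, 244 and 275 in control libraries. CCNA2 had 2419, 2229.8 and 2412 in SIRT1 KD, 3412, 2795 and 3104 in IGF2BP2 KD, 3021, 3310.3 and 3469 in double KD, and 2626, 2984 and 2810.2 in control libraries. Both were above all control libraries in double KD, where HMMR rose by 0.42 (adjusted p = 0.0104) and CCNA2 by 0.22 (adjusted p = 0.039). The call of HMMR was lost without control replicate 2 (0.0575) or double KD replicate 3 (0.0656), and that of CCNA2 without control replicate 1 (0.179), control replicate 3 (0.0931), SIRT1 KD replicate 1 (0.0527), SIRT1 KD replicate 3 (0.0541), IGF2BP2 KD replicate 3 (0.0553) or double KD replicate 3 (0.14). Without double KD replicate 2, 17 genes were lower and 4 higher, against 3617 and 3453 of all 18112 tested genes. ANLN and KIF23 were among the 4. The count of higher genes was also 4 without double KD replicate 1, 0 without double KD replicate 3, and 1 without any single control library, SIRT1 KD replicate 1 or 3 or IGF2BP2 KD replicate 3. The calls of CENPA (-0.27), NDC80 (-0.26), DLGAP5 (-0.26) and ECT2 (-0.26) were lost without control replicate 2 or 3 (0.064 to 0.143); CENPA also without double KD replicate 1 (0.086), DLGAP5 without double KD replicate 2 (0.0578), and ECT2 without control replicate 1, double KD replicate 1 or 2, any SIRT1 KD library or IGF2BP2 KD replicate 3 (0.0526 to 0.107). In double KD replicate 2, UBE2S lay 0.78 above and CENPE 0.64 below the mean of its partners on the log2 scale, the widest gaps among the 48 genes.

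In double KD against SIRT1 KD cells 11 genes were higher and 2 lower, against 11.9% and 10.7% of all tested genes, with a median of 0.11. SPC24 was higher by 0.64 (adjusted p = 0.00023), FOXM1 by 0.56 (adjusted p = 3.1e-05), SPC25 by 0.55 (adjusted p = 0.00184), MAD2L1 by 0.50 (adjusted p = 0.00097), PTTG1 by 0.48 (adjusted p = 0.00035), HMMR by 0.48 (adjusted p = 0.00698) and CCNA2 by 0.47 (adjusted p = 0.00027). NCAPG, CENPA, TOP2A and NCAPD2 were higher by 0.21 to 0.35. The calls of CENPA, TOP2A and NCAPD2 depended on single libraries: CENPA was lost without SIRT1 KD replicate 1 or 2 or double KD replicate 3 (0.0912 to 0.128), TOP2A without any SIRT1 KD library or double KD replicate 3 (0.0545 to 0.117), and NCAPD2 without SIRT1 KD replicate 2 or 3 or double KD replicate 3 (0.0532 to 0.117). The exceptions were 2 genes lower in double KD: against SIRT1 KD cells, CENPE fell by 0.89 (adjusted p = 0.00024) and PRC1 fell by 0.69 (adjusted p = 0.00132). Libraries of the groups did not overlap for 15 genes higher and 3 lower in double KD, against 18% and 15.2% of all tested genes. Without double KD replicate 2, the counts were 20 higher and 5 lower, against 2683 and 2449 of all 18112 tested genes.

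SIRT1 knockdown was measured in 2 backgrounds with no library in common: in SIRT1 KD against control cells, and in double KD against IGF2BP2 KD cells. In double KD against IGF2BP2 KD 15 of 48 genes were lower and 2 higher, against 15.2% of all tested genes lower and 16.4% higher, with a median of -0.11. Libraries of these groups did not overlap for 12 genes lower and 3 higher, against 18.9% and 19.5% of all tested genes. Genes lower in both backgrounds numbered 14, which is 60.9% of the 23 lower in SIRT1 KD against control and 93.3% of the 15 lower in double KD against IGF2BP2 KD. With only the libraries of the groups compared the overlap was 7 genes (MAD2L1, PTTG1, CENPF, TOP2A, KIF20A, DLGAP5 and FOXM1), which is 22.6% of 31 lower in SIRT1 KD against control and 100% of 7 lower in double KD against IGF2BP2 KD. The overlap was 9 without IGF2BP2 KD replicate 1 and 16 without double KD replicate 2. The same overlap over all tested genes was not counted, so these shares cannot be read as particular to the mitosis genes. Among the 15, the calls in double KD against IGF2BP2 KD were least stable for INCENP, lost in 10 of the 12 fits without a library, SMC2 in 8, TTK in 4 and BIRC5 in 3; MKI67 and KIF11 were each lost in 1, without IGF2BP2 KD replicate 1. The 23 genes were chosen by their fall in SIRT1 KD against control. That choice by itself makes a change nearer 0 likely in the other background, so a count of such changes cannot show a weaker effect. Of the 23 genes, 20 had a log2 change below 0 in the IGF2BP2 KD background and 20 a change nearer 0 or above it. The log2 change there was -0.91 for FOXM1 (adjusted p = 7.4e-08), -0.65 for MAD2L1 (adjusted p = 4.7e-05), -0.46 for KIF20A (adjusted p = 0.00015) and -0.43 for PTTG1 (adjusted p = 0.00055). AURKB, the kinase of the passenger complex, was higher in double KD than in IGF2BP2 KD by 0.19 (adjusted p = 0.0382) and BUB3 by 0.23 (adjusted p = 0.0121). BUB3 lost its call without IGF2BP2 KD replicate 2 (0.0685), and AURKB without control replicate 3, double KD replicate 2 or 3, or any SIRT1 KD or IGF2BP2 KD library (0.0514 to 0.0888). Without IGF2BP2 KD replicate 1 the count of lower genes was 9. Without double KD replicate 2 the counts were 16 lower and 4 higher, against 3120 and 3331 of all 18112 tested genes. The count of higher genes was 0 without IGF2BP2 KD replicate 2, and 1 without control replicate 3, any SIRT1 KD library, IGF2BP2 KD replicate 1 or 3, or double KD replicate 3. Across genes, which are not independent, the log2 changes in the 2 backgrounds had a Pearson correlation of 0.60 over the 48 genes and 0.59 over all tested genes. For IGF2BP2 knockdown, in control and in SIRT1 KD cells, it was 0.52 and 0.42, and CENPE and PRC1 were the genes lower in both.

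**Figure D5:**
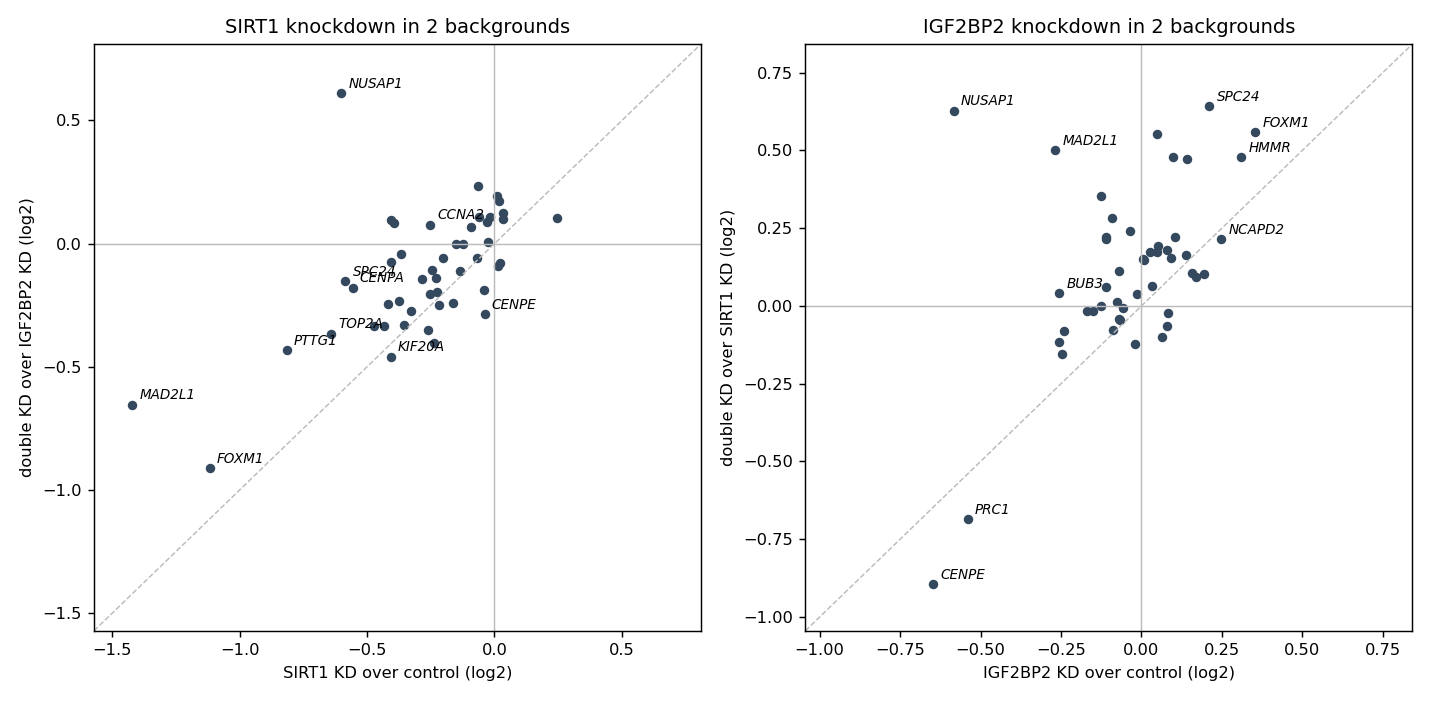
Log2 fold changes of the 48 genes for SIRT1 knockdown (left: SIRT1 KD over control, horizontal, against double KD over IGF2BP2 KD, vertical) and for IGF2BP2 knockdown (right: IGF2BP2 KD over control against double KD over SIRT1 KD); the dashed line marks equal change. MAD2L1 lies above the line on the left, at -1.42 and -0.65, and CENPE and PRC1 are low on both axes on the right.

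The difference between backgrounds was tested as an interaction, the effect of SIRT1 knockdown in IGF2BP2 KD cells less its effect in control cells. A positive value means that the 2 single changes, added up, predict a lower level than double KD cells had. Its median over the 48 genes was 0.13, and 2 genes were called higher and 0 lower, against 1.7% and 1.16% of all tested genes. MAD2L1 had an interaction of 0.77 (95% interval 0.48 to 1.06, adjusted p = 0.00697), called in every alternative tried. NCAPG had one of 0.48 (0.22 to 0.74, adjusted p = 0.0457). Its call was lost under TMM scaling (0.0582) and edgeR (0.0607), and without any single control or SIRT1 KD library, IGF2BP2 KD replicate 2 or 3, or double KD replicate 3 (0.053 to 0.151). Other values were SPC25 at 0.50 (adjusted p = 0.104), SPC24 at 0.43 (0.128), PTTG1 at 0.38 (0.087) and CENPA at 0.38 (0.114), none of them called. Without double KD replicate 2, 9 genes were called higher (CENPA, SPC25, NCAPG, MAD2L1, CCNA2, PTTG1, BUB3, FOXM1 and TOP2A) and CDC25B lower. Of all 18112 tested genes, 1062 were higher and 703 lower in that fit. Without double KD replicate 1, 5 of the 48 were higher. The count of higher genes was 1 without any single control or SIRT1 KD library, IGF2BP2 KD replicate 2 or 3, or double KD replicate 3.

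Set directly against each other, SIRT1 KD and IGF2BP2 KD cells differed in 25 of the 48 genes: 22 were lower and 3 higher in SIRT1 KD, against 19.3% of all tested genes in each direction, with a median of -0.21. Libraries of the groups did not overlap for 26 genes lower and 8 higher, against 26.9% and 28% of all tested genes. The log2 difference was -1.47 for FOXM1 (adjusted p = 1.2e-10), -1.15 for MAD2L1 (adjusted p = 3.2e-08), -0.91 for PTTG1 (adjusted p = 8.7e-08) and -0.80 for SPC24 (adjusted p = 8.8e-06). MKI67, not called against control in either single knockdown with all libraries fitted, was lower in SIRT1 KD than in IGF2BP2 KD cells, at -0.46 (adjusted p = 0.00241). CENPE, PRC1 and BUB3 were higher in SIRT1 KD by 0.61 (adjusted p = 0.00236), 0.50 (adjusted p = 0.00771) and 0.19 (adjusted p = 0.0305). That of BUB3 was lost without any SIRT1 KD library or IGF2BP2 KD replicate 2 or 3 (0.0694 to 0.153). Without double KD replicate 2, 27 genes were lower and 6 higher, against 4252 and 4347 of all 18112 tested genes.

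In none of the 7 comparisons were 16 genes called: CCNB1, CCNB2, CDC25C, PLK1, AURKA, TPX2, CDCA8, BUB1, UBE2C, UBE2S, ESPL1, NUF2, SMC4, KIF23, NUSAP1 and ANLN. Of these, CDC25C, CDCA8, BUB1, UBE2C, UBE2S, KIF23 and ANLN were called in at least 1 comparison without double KD replicate 2. Per kilobase of exon, UBE2C, TPX2 and CCNB1 were the highest of the 48 in control cells, at 2104, 2051 and 1934 normalised counts per kilobase, followed by TOP2A at 1913, and in SIRT1 KD cells these 4 were at 1971, 2013, 1775 and 1225. NUSAP1, PRC1 and HMMR were the lowest, at 3.92, 25.0 and 64.8 in SIRT1 KD and 6.20, 25.7 and 67.7 in control cells.

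Other genes of the pathway were counted in SIRT1 KD against control cells. Over 121 further mitosis genes 34 fell and 7 rose, with a median of -0.13, against 15.7% of all tested genes lower and 12.9% higher. Leaving out double KD replicate 2, 49 fell and 13 rose, against 20.4% and 18.4% of all tested genes. Of 26 other kinetochore genes 7 fell and none rose, led by ZWINT (-1.06, adjusted p = 2.9e-08), which links the kinetochore to the checkpoint. Of 16 cohesin genes 6 fell and none rose, among them ESCO2 (-1.04), which acetylates cohesin, and its ring subunit RAD21 (-0.64). Of 15 subunits and activators of the anaphase-promoting complex 2 fell (ANAPC16 at -0.83, and CDC26) and 3 rose (CDC16 at 0.33, CDC23 and ANAPC4), which is 13.3% and 20%, near the shares of all tested genes; without double KD replicate 2 the count was 4 each way. The count that fell was 1 without control replicate 2 or 3, any SIRT1 KD library or IGF2BP2 KD replicate 3. Among 18 other entry regulators 5 fell and 3 rose: BORA, which helps Aurora A activate PLK1, was at -1.20, the kinase NEK2 at -0.60, the phosphatase subunit PPP1CC at -0.84, and WEE1, which inhibits CDK1, at 0.50. In this list 9 fell and 5 rose without double KD replicate 2.

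Of 8 other checkpoint genes 1 fell, KNTC1 (-0.33), and none did without control replicate 2. Of 6 other condensin genes 2 fell, led by NCAPD3 of condensin II (-0.44), and 1 rose, MCPH1, which was not called without any single control library or SIRT1 KD replicate 2 or 3. Of 32 other spindle and cytokinesis genes 11 fell and none rose, led by HAUS2 and HAUS6 (both -0.57) of the augmin complex and the kinesin KIF20B (-0.67); the count was 17 without double KD replicate 2, 6 without control replicate 2 or SIRT1 KD replicate 1 or 3, and 7 without control replicate 3. Of 17 regulators of mitotic transcription 6 fell and 1 rose, with the repressors E2F8 at -0.74 and E2F7 at 0.74. DNA replication genes, active earlier in the cycle, fell in 22 of 34 and rose in none, with a median of -0.34, and in double KD against SIRT1 KD 24 of the 34 were higher and none lower, with a median of 0.47. The count that fell was 12 without control replicate 2 and 13 without SIRT1 KD replicate 2. Their interaction was called higher in 12 of 34 replication genes, against 1.7% of all tested genes, and in 2 of the 48 mitosis genes. It was called higher, without double KD replicate 2, in 19 of 34 and in 9 of 48, against 5.86% of all tested genes. The replication count was also 19 without double KD replicate 1, 3 without control replicate 2, and 5 to 7 without control replicate 3, any SIRT1 KD library or IGF2BP2 KD replicate 2 or 3. The difference between the lists was not tested.

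A pair of 3′ UTR letter strings, CTCAGAT and TCAGATA, is given because earlier results of these data had picked it in the same SIRT1 KD against control contrast, so nothing is supported by its counts. In the longest annotated 3′ UTR of each gene (GENCODE 29, GRCh38) at least 1 of the strings was present in 7 of the 48 genes (14.6%), against 20.2% of 13127 genes. Of the 7, namely CDCA8, CENPA, MAD2L1, TTK, BUB3, TOP2A and BIRC5, 5 were lower in SIRT1 KD, with a median of -0.47, and of the 41 without, 18, with a median of -0.23. Over all searched genes 37.4% of those with and 14.3% of those without were lower. The 8 letters that join both strings, in capitals below, were in 3 of the 48 genes, of which MAD2L1 had the largest fall of all while CDCA8 and BUB3 (with 2 copies) were not called.
MAD2L1, chr4:120055904-120055933, minus strand: tttacactttcCTCAGATAgtctgttgtca
CDCA8, chr1:37708803-37708832, plus strand: ggaggtttaggCTCAGATAagtgagctctg
BUB3, chr10:123170213-123170242, plus strand: aacacttcactCTCAGATAtaattattagc
BUB3, chr10:123170271-123170300, plus strand: atgatgtagttCTCAGATAtatacgggatt
Whether these letters have a part in any fall was not tested.

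Some counts may include reads of other genes or lack reads shared with them, since the counting mode was not given in the sources used here. Of the 48 genes 16 share exonic bases with a gene on the opposite strand, NCAPG among them with 33.1%, and 4 with a gene on the same strand. Copies with a related name exist for 13, the most abundant being UBE2SP1 with at most 42.6 normalised counts, so UBE2S in particular is uncertain.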

How the data were processed

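Total RNA from 12 MDA-MB-231 cultures was sequenced. The submitters' processing notes name the build GRCh38.p13 and the tools CASAVA, STAR and DESeq2; their versions, the annotation and the strand setting were not given in the sources used here. Values that the authors deposited are a signal: gene counts divided by a size factor for each library. Dividing each of the 12 columns by the value of 1 read gave whole numbers, within 0.001 reads, for 100% of entries, and these recovered reads served the filter and the count-based alternatives. A deposited table of log2 ratios, made by the authors against control, was used only to check which column is which library. The main table has short column codes; that of SIRT1 KD was assigned by elimination and by its match with the fully named ratios. Another 12 columns, of raw counts without names, were not used. Of 60649 gene IDs 60507 were matched to a symbol and 58381 to GENCODE 29.

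The test was limma 3.58.1 (R 4.3.3; trend, robust) on log2(value + 1), since the named columns hold normalised values, with 4 group means and all 12 libraries. This scale understates changes of low genes. Genes were kept by filterByExpr (edgeR 4.0.16, minimum count 10), and called at a Benjamini-Hochberg adjusted p under 0.05 over 17576 genes. Adjusted p-values come from limma, except those given under edgeR, which come from its quasi-likelihood test. Values in parentheses after a left-out library are the adjusted p without it. Intervals are 95%. There were 7 comparisons. The method was tested on simulated data. Alternatives were TMM scaling, edgeR, DESeq2 1.42.0, a pseudocount of 5, no filter, only the groups compared, a replicate block and each library left out. Per-library values are given for up to 3 genes in each role by adjusted p in SIRT1 KD against control, and for genes called against the trend of their role; from other lists, up to 4 each were eligible. The genes and lists were chosen with earlier results of these data known.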

Additional observations from a re-analysis of the deposited data

Results flagged for a closer look

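The effect of SIRT1 knockdown differed between the 2 backgrounds in 2 of the 48 genes, by limma's test of the interaction. Both were called higher, against 1.7% of all tested genes higher and 1.16% lower, so the count by itself says little about the list. For MAD2L1, the log2 change was -0.65 in double KD against IGF2BP2 KD and -1.42 in SIRT1 KD against control, a difference of 0.77 (adjusted p = 0.00697). For NCAPG the log2 change was 0.08 in double KD against IGF2BP2 KD and -0.40 in SIRT1 KD against control, a difference of 0.48 (adjusted p = 0.0457), and that call was lost under TMM scaling (0.0582), under edgeR (0.0607) and without any of 9 single libraries.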

How the results depend on the processing

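No called result changed direction under any alternative tried. Called genes among the 48, as the lowest and highest with 1 library left out, were 15 to 29 lower and 0 to 1 higher for SIRT1 KD against control, 1 to 7 and 1 to 6 for IGF2BP2 KD against control, 13 to 19 and 0 to 4 for double KD against control, 2 to 5 and 8 to 20 for double KD against SIRT1 KD, 9 to 18 and 0 to 4 for double KD against IGF2BP2 KD, 17 to 27 and 2 to 6 for SIRT1 KD against IGF2BP2 KD, and 0 to 1 and 1 to 9 for the interaction. Calls that held with each library left out numbered 15 of 24, 2 of 6, 13 of 19, 10 of 13, 9 of 17, 19 of 25 and 1 of 2, in that order. With only the groups compared, IGF2BP2 KD against control gave 7 lower and 6 higher, double KD against control 1 higher, double KD against IGF2BP2 KD 7 lower and 0 higher, and SIRT1 KD against IGF2BP2 KD 6 higher. Under TMM scaling and under edgeR, double KD against IGF2BP2 KD gave 1 higher and the interaction 1 higher, without NCAPG; without the filter, double KD against IGF2BP2 KD gave 1 higher. With DESeq2 the interaction gave 4 higher. On the recovered reads, edgeR and DESeq2 each called 23 lower and 1 higher in SIRT1 KD against control. The causes were not tested. Scaling moved the median of all genes by less than 0.1. Groups of 3 libraries limit the precision of small changes.

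Replicate numbers did not pair the libraries: 18 same-numbered pairs had correlations of -0.193 to 0.1, other pairs -0.165 to 0.229, and 6 of 12 libraries were closest to their own number. With a replicate block, 1 gene was higher and 24 lower in SIRT1 KD against control, and the interaction gave 1 higher, MAD2L1, with NCAPG no longer called.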
